A study of Mus musculus with 10 samples.

Results

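The 39 genes described here are genes that astrocytes of the mouse brain are known to express, measured by mRNA sequencing of prefrontal cortex. All mice were C57BL/6N males, sampled at postnatal day 10. The genes were chosen by name, from a fixed list of symbols, out of the 18216 genes of the table, and all 39 were found in it. The rule uses no measured value, but the list was drawn up with earlier results of these data known, so the shares given below describe these genes and are no independent evidence. The study set 5 Arid1b heterozygotes (HT) beside 5 wild-type mice (WT), to ask which transcripts differ in the young cortex when 1 copy of Arid1b is inactivated. Arid1b encodes a DNA-binding subunit of the BAF chromatin remodelling complex. Its mutant allele carries a truncating change in exon 5, made by genome editing in a single mouse line and present in every cell of the body, neurons and astrocytes alike. No mouse received a treatment, and the labels give 1 library per replicate mouse without naming its litter.

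Astrocytes are the glial cells that take up glutamate and potassium released by neurons, supply neurons with metabolites, cover blood vessels with their end feet and secrete proteins that act on synapses. In the rodent cortex they multiply and mature during the first postnatal weeks, so the age sampled here lies within that period. Several of the genes are not private to astrocytes. Apoe and Cst3 are also made by microglia, S100b and Glul by cells of the oligodendrocyte lineage, Sparcl1 by neurons and vessel cells, Clu by neurons, and Nfia by progenitors and neurons. In whole tissue a lower value can come from fewer cells of a type or from less RNA per cell, and the same holds for a higher one, and these cannot be told apart.

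Each value is a normalised count, that is an estimated number of reads that the authors divided by a size factor for each library, and these summed to between 31106330 and 32106791 per mouse. Arid1b itself averaged 1894 ± 86.6 in HT and 2842 ± 142 in WT (mean ± SD, n = 5 each), which is -0.59 on the log2 scale (SE 0.05, limma adjusted p = 9.96e-05), and every HT mouse was below every WT mouse. Between any pair of mice the correlation over genes was 0.982 to 0.989. The mouse HT2 stood apart by the share of its counts on mitochondrial genes, which was 8.43% against 5.15% to 6.76% in the other 9 mice. All 39 astrocyte genes had a value above 0 in every mouse, including the defining markers Aqp4, Gfap, Aldh1l1, Slc1a2, Slc1a3, S100b, Sox9 and Gja1.

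The astrocyte genes mostly had a somewhat higher mean in the heterozygotes, but none passed a test over the whole transcriptome. The mean was higher in HT for 37 of the 39 genes (94.9%) and lower for 2, Chrdl1 and Gpc4, whereas 48.8% of all 16781 genes tested were higher. The median log2 fold change over the 39 genes was 0.21, against 0.00 over all genes tested, and single genes ranged from -0.15 for Chrdl1 to 0.67 for Gfap. None of the 39 had an adjusted p under 0.05 in the limma fit, in which 0.0179% of all genes did, and the smallest adjusted p among them was 0.32, for Clu. At an unadjusted p under 0.05, 21 of the 39 genes (53.8%) were higher in HT, against 4.71% of all genes tested. That count was 11 without WT3 and 7 without both HT2 and HT5, and the median log2 fold change was 0.07 without that pair and 0.13 without HT2 alone. HT2 and HT5 were the highest mice for these genes and WT3 the lowest, so leaving them out shrinks the difference by choice of mice. On the lower side there were 0 of the 39, against 4.52% of all genes, and 1, Chrdl1, without HT2. For 3 genes (7.69%), Gfap, Clu and Entpd2, every HT value lay above every WT value, and 0.703% of all genes tested met that description. The 39 genes vary together across mice, as described below, so their counts do not stand for that many separate observations.

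**Figure D1:**
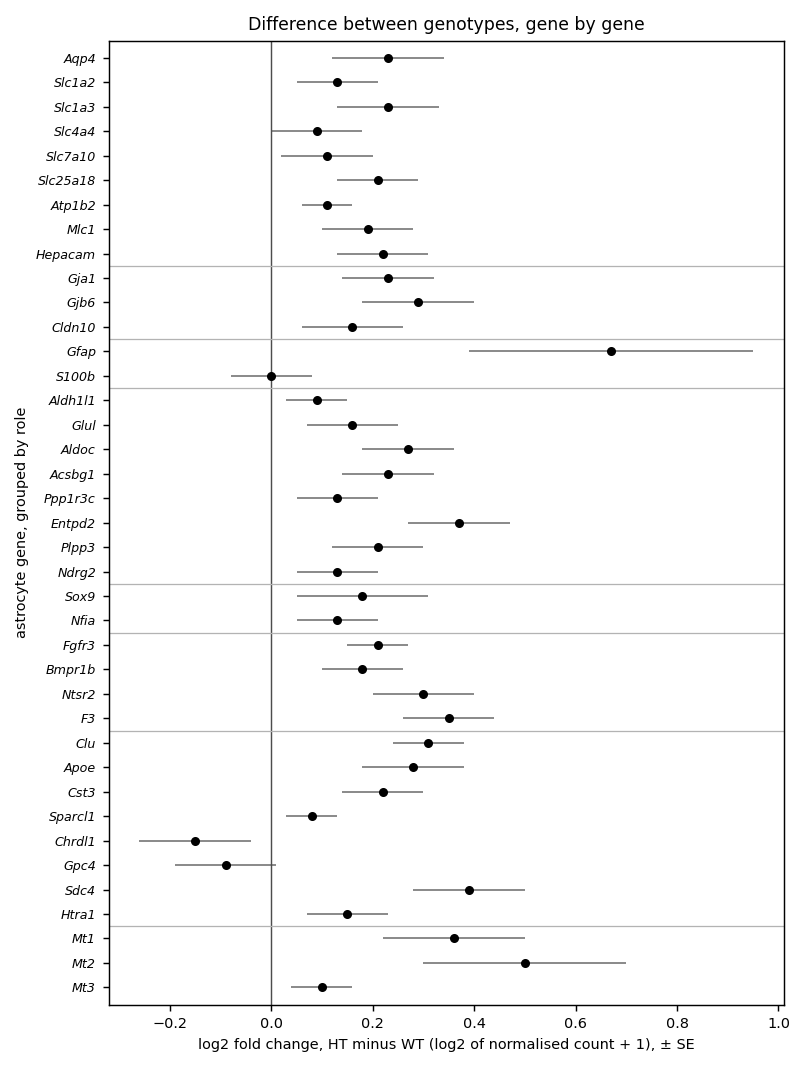
Log2 fold change between HT and WT (points, on the scale of log2 of the normalised count plus 1) with its standard error (bars) for the 39 astrocyte genes, with lines between groups of like role; n = 5 mice per genotype. 37 points lie to the right of 0, from 0.00 for S100b to 0.67 for Gfap, and Chrdl1 and Gpc4 lie to the left.

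The transporters and the proteins that handle water and ions were 9 of the 39 genes. All 9 were higher in HT on average, against 48.8% of all genes tested, with log2 fold changes of 0.09 to 0.23. Of the 9, 4 (Aqp4, Slc1a3, Slc25a18 and Hepacam) had an unadjusted p under 0.05, against 4.71% of all genes on the higher side. Aqp4 encodes the water channel of the end feet. Its normalised count was 5205, 7084, 4959, 6533 and 7936 in HT1 to HT5, and 5329, 5180, 5207, 5712 and 5163 in WT1 to WT5. HT2, HT4 and HT5 were above every WT mouse, HT3 was the lowest of all 10, and HT1 lay among the WT mice. The log2 fold change was 0.23 (SE 0.11, limma adjusted p = 0.54), or 0.15 without HT5.

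The glutamate transporters clear the transmitter from the synaptic cleft. Slc1a3, which encodes GLAST, the form that appears first in development, was at 18369, 27961, 17622, 20840 and 23122 in HT1 to HT5, and at 18012, 18893, 16671, 19106 and 18027 in WT1 to WT5. Again HT2, HT4 and HT5 were above all WT mice while HT1 and HT3 lay within their range, and the fitted difference was 0.23 on the log2 scale (SE 0.10, limma adjusted p = 0.52), or 0.13 without HT2. Slc1a2, which encodes GLT-1 and becomes the main transporter in the mature cortex, was at 108027, 132355, 110329, 127693 and 119679 in HT1 to HT5. In WT1 to WT5 it was at 115212, 119541, 100922, 96116 and 115147. HT2, HT4 and HT5 were above every WT mouse, HT5 only just, while HT1 and HT3 lay within the WT range. The log2 fold change was 0.13 (SE 0.08, limma adjusted p = 0.62), and the WT mice differed among themselves about as much as the HT mice.

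Among the other 6 genes of this role, Hepacam, a cell adhesion protein of astrocyte contacts, averaged 2545 ± 371 in HT and 2171 ± 165 in WT. Its partner Mlc1, a membrane protein of the end feet that takes part in volume regulation, averaged 3987 ± 652 and 3461 ± 213. Slc25a18, a mitochondrial glutamate carrier, averaged 1484 ± 205 and 1278 ± 66.0, and all 5 HT mice were above its WT mean. The smallest differences of the group were those of the sodium bicarbonate cotransporter Slc4a4 (log2 fold change 0.09), the neutral amino acid transporter Slc7a10 (0.11) and the sodium pump subunit Atp1b2 (0.11). Without HT2 these were 0.03, 0.04 and 0.08.

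Connexins join neighbouring astrocytes into networks. Gja1, which encodes connexin 43, the main gap junction protein of astrocytes, averaged 6721 ± 1040 in HT and 5680 ± 332 in WT, a log2 fold change of 0.23, with its highest values in HT5 and HT2. Cldn10, a claudin, averaged 467 ± 83.2 and 413 ± 21.2. Gjb6, which encodes connexin 30, the second astrocyte connexin, ranged from 981 to 1194 in HT and from 747 to 1169 in WT, and its fitted difference was 0.29 on the log2 scale (SE 0.11, limma adjusted p = 0.49). Its HT mice lay close together and its highest was HT4, and WT5, at 1169, was above 4 of the 5 HT mice and far from the other WT mice.

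Gfap encodes the intermediate filament of astrocytes, which in the cortex is strongest in astrocytes at the surface, in white matter and in reactive cells. It was at 3828, 5007, 3572, 4036 and 13936 in HT1 to HT5, and at 3426, 3458, 3072, 3359 and 3106 in WT1 to WT5. All 5 HT mice were above all 5 WT mice, HT1, HT3 and HT4 by the least, HT2 by more, and HT5 was far above the rest. The fitted difference, 0.67 on the log2 scale (SE 0.28, limma adjusted p = 0.51), was the largest of the 39 genes, and it was 0.31 when HT5 was left out. S100b, a calcium-binding protein, was at 1097, 1331, 944, 1154 and 1189 in HT1 to HT5, and at 1097, 1241, 1114, 1014 and 1217 in WT1 to WT5. HT3 was below and HT2 above every WT mouse, the other 3 HT mice lay within the WT range, and the log2 fold change was 0.00 (SE 0.08, limma adjusted p = 0.99).

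**Figure D2:**
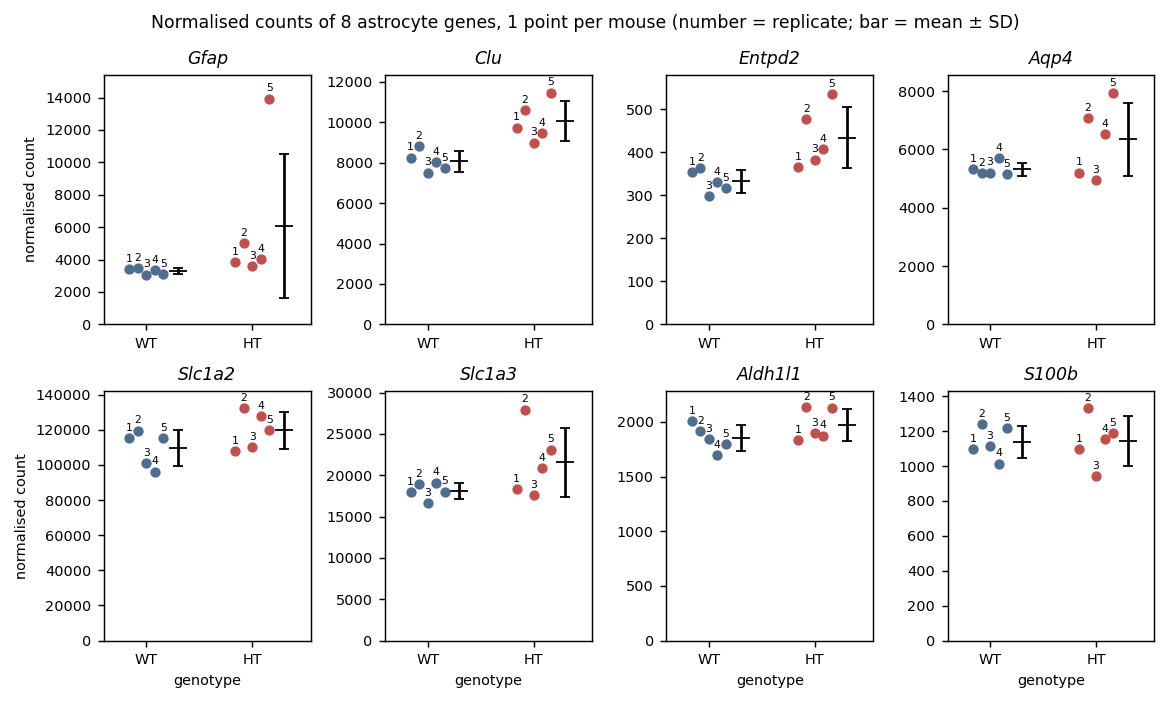
Normalised counts of 8 astrocyte genes in WT (blue) and HT (red), with 1 numbered point per mouse, and the mean ± SD (n = 5) as a bar beside each group; each vertical axis starts at 0. Gfap, Clu and Entpd2 do not overlap between genotypes, with HT5 at 13936 for Gfap, and for S100b the HT mice extend beyond the WT mice on both sides.

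Some genes of ependyma and progenitors were also at their highest in HT5, though most of the 10 progenitor genes were not, and the sum of that list was highest in HT2. Vim, an intermediate filament of progenitors and immature astrocytes, was at 2072 in HT5 and between 957 and 1485 in the other 9 mice. Foxj1, the regulator of motile cilia in ependymal cells, was at 219 in HT5 and between 73.8 and 149 elsewhere. Thbs4, a thrombospondin made by astrocytes near the ventricle, was at 205 in HT5 and 172 in HT3, and between 12.5 and 99.1 in the others, and it was named after its values were seen. Not all ependymal and choroid plexus genes did so, and Kl was lowest of the 10 mice in HT5, at 28.2. Of the 10 genes of that list, 8 were analysed here, the choroid plexus markers Ttr and Folr1 were not, and 7 were tested. Tmem212 was at 0 in 2 WT mice. The summed level of the 8 ran from 305 to 507 in HT, with HT5 the highest, and from 228 to 299 in WT. The part of these tissues in the Gfap value of HT5 was not tested.

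All 8 metabolic genes had a higher mean in HT, against 48.8% of all genes tested, and 4 had an unadjusted p under 0.05, against 4.71% on the higher side. Entpd2, an enzyme that breaks down extracellular ATP, was at 366, 477, 383, 407 and 536 in HT1 to HT5, and at 353, 364, 299, 331 and 317 in WT1 to WT5. Its groups did not overlap, although HT1 was barely above the highest WT mouse, and the log2 fold change was 0.37 (SE 0.10, limma adjusted p = 0.41). Aldh1l1, a folate enzyme widely used as a pan-astrocyte marker, was at 1836, 2134, 1895, 1875 and 2130 in HT1 to HT5, and at 2004, 1914, 1846, 1697 and 1800 in WT1 to WT5. HT2 and HT5 were the highest mice, the other 3 HT mice lay inside the WT range, and the log2 fold change was 0.09 (SE 0.06, limma adjusted p = 0.62).

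Aldoc, the brain aldolase of glycolysis, averaged 13749 ± 1651 in HT and 11432 ± 1290 in WT (log2 fold change 0.27). Acsbg1, which activates long-chain fatty acids, averaged 3833 ± 518 and 3252 ± 291, and Plpp3, a lipid phosphatase, averaged 5626 ± 866 and 4846 ± 395. Glul, glutamine synthetase, which turns the glutamate taken up into glutamine, averaged 36115 ± 5362 and 32061 ± 1594, with HT2 and HT5 above the other mice. For Ppp1r3c, a regulator of glycogen synthesis, and for Ndrg2, a cytoplasmic protein rich in astrocytes, the log2 fold change was 0.13 each. Without HT2 it was 0.07 for Ppp1r3c and 0.05 for Ndrg2.

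Sox9 and Nfia encode transcription factors that specify the astrocyte lineage. Sox9 averaged 557 ± 104 in HT and 489 ± 79.7 in WT (log2 fold change 0.18, SE 0.13), which was 0.09 without HT2 and 0.26 without HT1. Nfia averaged 1575 ± 170 and 1435 ± 129 (0.13, SE 0.08), or 0.09 without HT2. Neither had an unadjusted p under 0.05. All 4 surface receptors had such a p, with log2 fold changes of 0.18 to 0.35, against 4.71% of all genes tested on the higher side. The difference between these roles was not tested. Fgfr3, a fibroblast growth factor receptor present from glial progenitors onwards, averaged 3413 ± 228 in HT and 2952 ± 241 in WT, with 4 of 5 HT mice above the highest WT mouse (log2 fold change 0.21, SE 0.06, limma adjusted p = 0.45). F3, tissue factor, which starts coagulation, averaged 869 ± 94.8 and 682 ± 82.0 (log2 fold change 0.35). Ntsr2, a neurotensin receptor, averaged 2634 ± 300 and 2152 ± 328 (0.30), and Bmpr1b, a receptor for bone morphogenetic proteins, averaged 754 ± 69.4 and 668 ± 62.8 (0.18). Bmpr1b kept an unadjusted p under 0.05 in 2 of the 10 fits that left out 1 mouse.

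The secreted, matrix and proteoglycan genes held both the lowest p and the only lower means. Clu encodes clusterin, a secreted chaperone that binds lipoproteins. It was at 9738, 10584, 8996, 9459 and 11466 in HT1 to HT5, and at 8251, 8832, 7512, 8040 and 7727 in WT1 to WT5. Every HT mouse was above every WT mouse, HT3 and WT2 being nearest to each other, and no single mouse set the difference. The log2 fold change was 0.31 (SE 0.07, limma adjusted p = 0.32), and it stayed between 0.26 and 0.35 with any 1 mouse left out. Apoe, the main lipid carrier made by astrocytes, averaged 27332 ± 4703 in HT and 22331 ± 1589 in WT (0.28), and all 5 HT mice were above its WT mean.

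Cst3, the protease inhibitor cystatin C, averaged 16861 ± 1938 in HT and 14444 ± 1101 in WT. Sdc4, a heparan sulphate proteoglycan of the cell surface, averaged 1045 ± 155 and 795 ± 112 (log2 fold change 0.39, SE 0.11, limma adjusted p = 0.41). Htra1, a secreted protease, and Sparcl1, the matrix protein hevin, differed less, by 0.15 and 0.08. Chrdl1 and Gpc4 encode astrocyte-secreted factors that act on AMPA receptors at synapses, and these were the genes with lower means in HT. Chrdl1 averaged 787 ± 142 in HT and 866 ± 64.3 in WT (-0.15, SE 0.11), with HT3 at 604 and HT1 at 686 below all WT mice. Gpc4 averaged 322 ± 39.8 and 342 ± 41.8 (-0.09, SE 0.10), and its highest mouse was WT3, the mouse lowest for most other astrocyte genes. The log2 fold change of Gpc4 was -0.02 without WT3 and -0.15 without HT5.

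The metallothioneins are small cysteine-rich proteins that bind zinc and copper. Mt1 and Mt2 are induced by metals through metal response elements, and also by glucocorticoids and stress, while Mt3 is the brain form. The genes lie side by side on chromosome 8 (GRCm38), Mt3 at 94152607 to 94154146, Mt2 at 94172664 to 94173568 and Mt1 at 94179082 to 94180327, all on the plus strand. Their promoters are shown because Mt1 and Mt2 were both highest in HT5 and lowest in WT3, and Mt3 was not. Each runs from 250 bases before to 50 bases after the transcription start given by RefSeq (GRCm38.p6), 5′ to 3′ on the plus strand, with matches to the metal response element core in capitals. The cores searched were TGCACNC and TGCGCNC on both strands, and no match overlapped another in these promoters.
Mt1 promoter, chr8:94178839-94179138: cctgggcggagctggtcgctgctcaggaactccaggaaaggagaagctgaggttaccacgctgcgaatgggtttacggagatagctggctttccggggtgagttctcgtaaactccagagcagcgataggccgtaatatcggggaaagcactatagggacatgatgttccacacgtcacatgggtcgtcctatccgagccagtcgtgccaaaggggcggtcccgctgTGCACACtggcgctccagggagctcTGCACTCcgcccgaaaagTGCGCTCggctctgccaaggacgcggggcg
Mt2 promoter, chr8:94172368-94172667: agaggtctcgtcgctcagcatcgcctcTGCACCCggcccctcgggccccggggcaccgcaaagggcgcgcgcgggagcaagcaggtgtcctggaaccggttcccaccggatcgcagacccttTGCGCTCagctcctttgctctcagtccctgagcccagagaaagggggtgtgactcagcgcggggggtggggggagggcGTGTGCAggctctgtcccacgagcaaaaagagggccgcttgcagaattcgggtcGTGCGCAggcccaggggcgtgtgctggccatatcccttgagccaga
Mt3 promoter, chr8:94152357-94152656: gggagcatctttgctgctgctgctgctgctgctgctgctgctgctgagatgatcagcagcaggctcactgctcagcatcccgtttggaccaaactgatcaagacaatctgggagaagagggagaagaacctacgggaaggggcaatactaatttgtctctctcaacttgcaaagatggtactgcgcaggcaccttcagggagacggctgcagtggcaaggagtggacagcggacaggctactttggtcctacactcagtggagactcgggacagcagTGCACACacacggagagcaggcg

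The Mt1 window held 3 matches and the Mt2 window 4, and the Mt3 window held 1. Of these, 2 in Mt1, 1 in Mt2 and the 1 in Mt3 lay downstream of the start. At least 1 such core stood in 25.7% of the 32851 promoters of the same length, 3 or more in 1.97% and 4 or more in 0.517%. In expression, Mt2 ranged from 585 to 1358 in HT and from 398 to 654 in WT (0.50 on the log2 scale, SE 0.20, limma adjusted p = 0.50), and Mt1 from 1023 to 1775 and from 801 to 1205 (0.36, SE 0.14, limma adjusted p = 0.50). HT5 was the highest mouse and WT3 the lowest for both. Mt3 ranged from 2356 to 2698 in HT and from 2141 to 2670 in WT, with a log2 fold change of 0.10 (SE 0.06) and HT5 not apart from the rest. Without HT5 the log2 fold change was 0.30 for Mt2 and 0.23 for Mt1.

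Promoters were searched for 33 of the 39 genes, 43 promoters in all, with none for Sox9, Clu, Aqp4, Sparcl1, Chrdl1 and Atp1b2. The search left out chromosome 18, on which Aqp4 lies. The letters TTGGC, the core of sites for the NFI factors to which Nfia belongs, occurred on either strand in 44.2% of these promoters and in 46.7% of all promoters searched. ACAAT, a core of SOX sites, occurred in 23.3% and 31%. The shares among astrocyte genes were thus no higher than those among promoters at large, and nothing about either factor follows from them.

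Mice of 1 genotype differed among themselves, and they did so for most of the genes at once. The average over the 39 genes of each mouse's difference from the gene's 10-mouse mean was 0.29 in HT2 and 0.28 in HT5 on the log2 scale, 0.08 in HT4, -0.05 in HT1 and -0.08 in HT3. In the WT mice it was -0.06, -0.02, -0.23, -0.12 and -0.09 for WT1 to WT5. HT2 and HT5 were each above the 10-mouse mean for all 39 genes, WT3 was above it for 2, and HT1 and HT3 lay within the WT range. HT2 was above the highest WT mouse for 36 of the 39 genes, HT5 for 31 and HT4 for 26, but HT1 and HT3 for only 4 each. Over all genes tested these shares were 25.2% in HT2, 21.8% in HT5, 16.1% in HT4, 14.8% in HT1 and 16.2% in HT3.

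**Figure D3:**
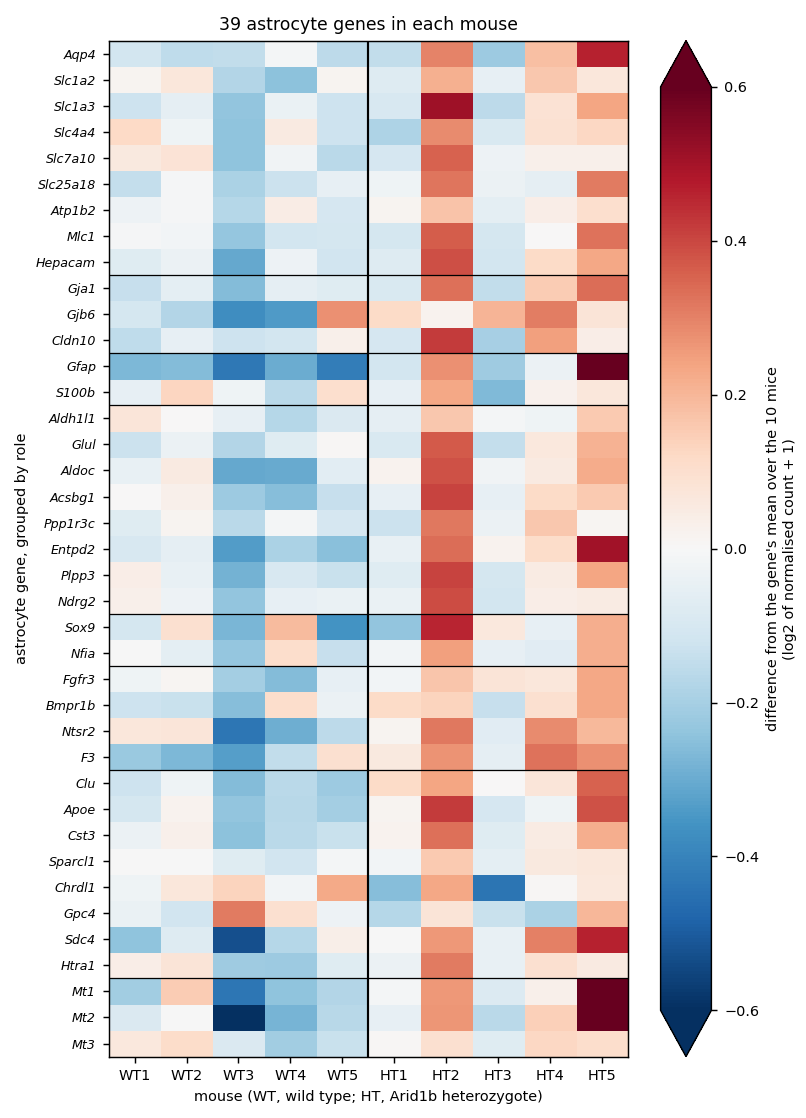
Difference of each mouse (columns, WT left of the line and HT right) from the gene's mean over the 10 mice, as log2 of the normalised count plus 1 (colour, which saturates at 0.6), for the 39 astrocyte genes (rows, grouped by role). The columns HT2 and HT5 are red in nearly every row, WT3 is blue in most, and HT1 and HT3 resemble the WT columns.

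The highest of the 10 mice was HT2 for 25 genes, HT5 for 10, HT4 for 3 and WT3 for 1. The lowest was WT3 for 26, WT4 for 7, HT3 for 4, and HT4 and WT5 for 1 each. HT2 or HT5 was therefore the highest mouse for 35 of the 39, against 28.3% of all genes tested. The SD of the log2 values had a median of 0.19 in HT and 0.12 in WT, and the medians over all genes tested were 0.15 and 0.12. It was larger in HT for 33 of the 39 genes (84.6%), against 59.1% of all genes. The coefficient of variation ran from 3.47% (Sparcl1) to 19.2% (Gjb6) in WT and from 5.59% (Mt3) to 72.9% (Gfap) in HT. Summed over the 39 genes, the normalised counts were 350568, 441536, 343692, 386873 and 416315 in HT1 to HT5, and 354214, 365848, 317250, 326624 and 349291 in WT1 to WT5, so that 3 HT mice were above and 2 within the WT range.

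Most of the genes followed the same order of mice. The correlation of a gene with the mean of the other 38, over the 10 mice, was 0.97 for Mlc1 and Gja1, 0.96 for Hepacam and Cst3, and 0.95 for Entpd2, Plpp3 and Apoe. It was lowest for Gpc4 at -0.01, Chrdl1 at 0.25 and Gjb6 at 0.35. Once the genotype means were removed, Chrdl1 followed the others (0.73) and Gjb6 did not (-0.06). These correlations are a description of 10 libraries, in which marker genes of other tissues vary too. Outside the astrocyte lists, the genes most like the average of the 39 were Prdx6 (0.987), Snx33 (0.977), Pgghg (0.977), C1qtnf5 (0.976) and Nhsl1 (0.974). Prdx6, an antioxidant enzyme, was at 4320 in HT2 and 4247 in HT5, between 3131 and 3679 in the other HT mice, and between 2516 and 3198 in WT.

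HT2 and HT5 were the highest mice for these genes, so leaving them out lowers the values by choice of mice. With both left out, 3 HT mice against 5 WT mice, the median log2 fold change of the 39 genes was 0.07 and 35 had a positive value. Of the 21 genes, 7 kept an unadjusted p under 0.05 on the higher side, against 2.96% of all genes in that fit. The 7 were Gjb6, Gfap, Entpd2, Fgfr3, F3, Clu and Sdc4, and Chrdl1 then had an unadjusted p under 0.05 on the lower side, at -0.31 (SE 0.10, limma adjusted p = 0.73). Gfap was then at 0.21 (SE 0.06, limma adjusted p = 0.62) and Clu at 0.22 (SE 0.05, limma adjusted p = 0.58). Leaving out only WT3 left 11 genes at that level, against 3.38% of all genes. Of the 21 genes, 11 (52.4%) kept an unadjusted p under 0.05 in each of the 10 fits that left out 1 mouse, as did 42.1% of the 791 genes that were higher at that level in the full fit. The 11 were Gjb6, Aldoc, Acsbg1, Entpd2, Fgfr3, Ntsr2, F3, Clu, Apoe, Cst3 and Sdc4. Aqp4 and Slc1a3 did so in 3 and 4 of the 10 fits.

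A second list of 50 astrocyte genes that shares none of the 39 gave a like picture in the same mice. It too was chosen with earlier results of these data known, so it is no independent evidence. All 50 were tested, and 44 had a positive log2 fold change, against 48.8% of all genes tested. The median log2 fold change was 0.16, and none had an adjusted p under 0.05 in the limma fit. At an unadjusted p under 0.05, 16 (against 4.71% of all genes) were higher and 1, Nfix, was lower (against 4.52%). The smallest p values were those of Grin2c, an NMDA receptor subunit, Fam107a, an actin-binding protein, Ezr, the ezrin of fine astrocyte processes, Id4, an inhibitor of bHLH factors, and Prodh, proline dehydrogenase. Grin2c was at 1179, 1665, 1142, 1258 and 1242 in HT1 to HT5 and at 758 to 1021 in WT, without overlap. Ezr was at 1543 to 2211 in HT and 1227 to 1455 in WT, also without overlap, and it lies on chromosome 17 at 6738041 to 6782784, on the same chromosome as Arid1b at 4994332 to 5347656 (GRCm38). With HT2 and HT5, the highest mice for this list too, left out, 7 of the 50 were higher at an unadjusted p under 0.05, against 2.96% of all genes. The median was then 0.04.

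Markers of other cell types differed between the same mice. Of 12 microglial genes, among them Csf1r, all 12 had a higher mean in HT, against 48.8% of all genes tested (median log2 fold change 0.16). No gene of this list or of the next 3 was at 0 in any mouse. At an unadjusted p under 0.05, 3 microglial genes were higher, against 4.71% of all genes. The summed level of the 12 was 16988 in HT2 and 16686 in HT5, and between 11802 and 13715 in the other 8 mice, so HT2 and HT5 stood above the rest here too. For 12 endothelial and mural genes HT2 had the highest sum, 24100, against 17550 to 21207 in the others, and HT5, at 19563, was not apart. For 12 neuronal genes, with Syt1 and Slc17a7 the most abundant, HT2 had the lowest sum, 189970, against 225819 to 257545, and their median log2 fold change was -0.06.

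WT3, the mouse lowest for most astrocyte genes, also had the lowest summed level of 12 oligodendrocyte lineage genes (Mbp and others), 46507 against 68658 to 107363 in the other mice. Markers of neighbouring tissue varied as well. The 12 striatal genes summed to 11133 in HT5, 10645 in WT3 and 10834 in WT5, and to 19018 to 29186 in the other 7 mice. With a score of striatal genes as a covariate, 23 of the 39 had a higher value in HT at an unadjusted p under 0.05, against 5.18% of all genes in that fit, and the median log2 fold change was 0.22. The 10 progenitor genes had the highest sum in HT2, 6205, and a median log2 fold change of 0.23, and all 10 were higher on average. The meningeal sum was highest in HT5 and HT2, at 9896 and 9789, against 6299 to 9178 in the other 8 mice, and the olfactory bulb sum was highest in HT2 and WT4, at 8591 and 8565, against 3734 to 6208. Medians were 0.24 for the oligodendrocyte lineage, 0.10 for vessel cells, -0.04 for meninges, 0.40 for 8 olfactory bulb genes, 0.48 for striatum, 0.52 for ependyma and choroid plexus and -0.26 for 6 blood genes. Genes with a higher mean were 11 of 12 for the oligodendrocyte lineage, 10 of 12 for vessel cells, 11 of 12 for striatum and 8 of 8 for olfactory bulb. For neurons they were 3 of 12, for meninges 4 of 10, for ependyma and choroid plexus 4 of 7 and for blood 1 of 6. The share over all genes tested was 48.8%. The fit with the striatal score is given for its values only, and the part of cell composition, dissection or RNA quality in the astrocyte values was not tested.

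**Figure D4:**
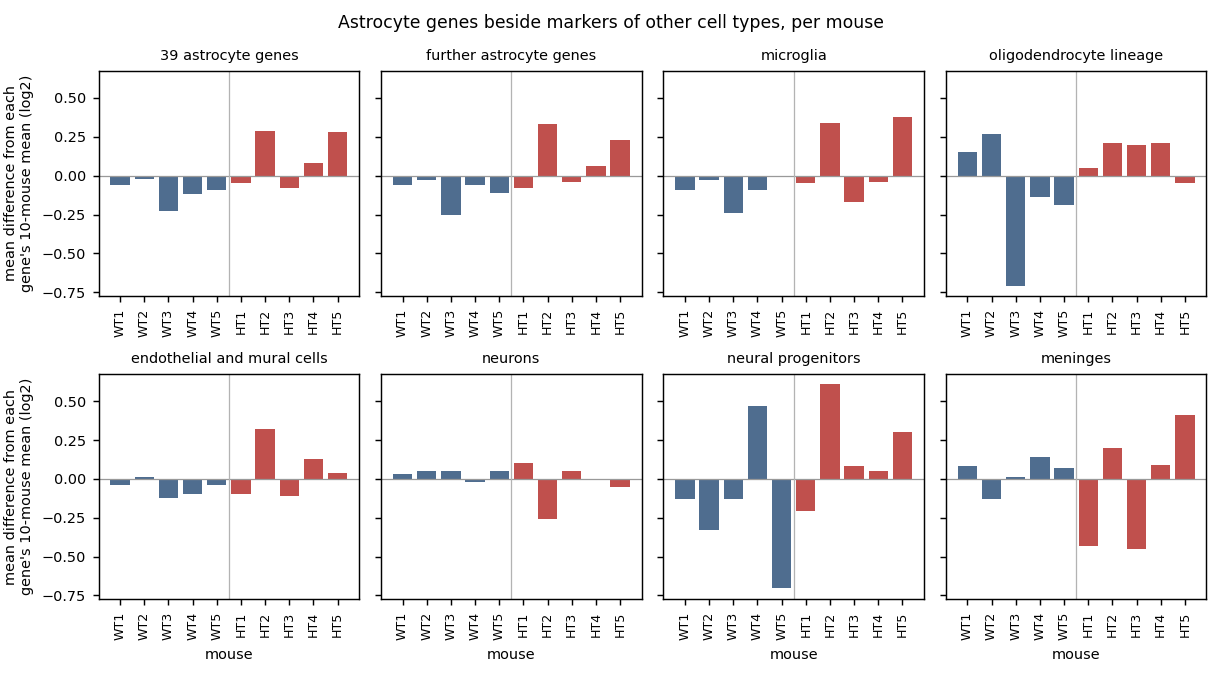
Mean difference from each gene's 10-mouse mean (log2 of the normalised count plus 1, vertical axis) in each mouse (bars, WT blue and HT red), for the 39 astrocyte genes and 7 lists of marker genes. HT2 and HT5 are high for both astrocyte lists and for microglia, HT2 is the lowest for neurons at -0.26, and WT3 is the lowest for the oligodendrocyte lineage at -0.71.

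In abundance the 39 genes spanned a wide range at this age. Per kilobase of exon, averaged over the 10 mice, the level ran from 119 normalised counts (Bmpr1b) to 14923 (Sparcl1), a ratio of 125, with a median of 768 against 122 for all genes tested, and 38 of the 39 were above that median. In WT the highest levels per kilobase were those of Sparcl1 (14492), Cst3 (11409), Apoe (10445), Glul (9648) and Slc1a2 (8329). Slc1a2 was thus above Slc1a3 (2125), and Aldoc (3504), Atp1b2 (3345), Ndrg2 (3031), Clu (2349) and Mt3 (2249) came between these. The end-foot and junction genes Mlc1 (1236), Aqp4 (853) and Gja1 (554) lay in the middle of the order, and the lineage factors Nfia (132) and Sox9 (118) were near the bottom with Gpc4 (129), Chrdl1 (128) and Bmpr1b (112). Neighbours among those last 5 differed by less than the larger of their SDs over the WT mice, as did Gfap (779), Mt1 (774) and S100b (766).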

How the data were processed

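Poly-A RNA libraries from the prefrontal cortex of 10 mice were made with a stranded kit. Per the submitters' processing notes, the authors estimated transcript levels with Salmon 1.1.0 against GRCm38 and normalised them with DESeq2 1.30.1 in R 4.1.1 (the study's methods name another R version), and the deposited signal values are counts divided by size factors, not whole numbers. At best 6.27% to 21.1% of the values under 20 in a library were whole multiples of 1 step (tolerance 0.02 of a step), so reads were not recovered, no count model was run, and depth is unknown beyond the sums given. A table row was matched to its symbol through the Ensembl ID for 18205 of 18216 genes (GENCODE annotation of GRCm38). The annotation release of the authors is not given in the sources used here.

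Genes with a mean of at least 10 were tested, HT against WT, with limma 3.58.1 (R 4.3.3) on log2(value + 1), with a mean-variance trend, two-sided, and Benjamini-Hochberg adjustment over 16781 genes. Fold changes on this scale understate those of low genes. P-values measure the spread between mice, whose litters are not given. The 39 genes and all lists were chosen with earlier results of these data known, and the 8 genes given in every mouse were 6 standard markers plus those without overlap between genotypes, which came to Gfap, Clu and Entpd2. Further astrocyte genes were named by smallest p. Of other lists, the most abundant genes were named, and some of these are not reported here. Levels per kilobase divide by the union of annotated exons. Alternatives were another pseudocount, filter, scaling, trend, weights, a replicate block, a striatal covariate and mice left out.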

Additional observations from a re-analysis of the deposited data

Results flagged for a closer look

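In 4 instances 1 mouse lay far from the others of its genotype, in that its gap to the nearest mouse was over 0.71 of the group's range, the 95% limit of Dixon's test for 5 values. In HT5 Gfap was at 13936, with 3572 to 5007 in the other HT mice, a gap of 0.862 of the range, and Mt2 was at 1358, with 585 to 788 in the others, a gap of 0.738. In HT2 Slc7a10 was at 1466, with 1070 to 1173 in the others (0.740), and Ndrg2 was at 14090, with 9959 to 11124 (0.718). Over the 80 groups examined, 40 genes in 2 genotypes, chance alone gives about 1 in 20, or 4.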

How the results depend on the processing

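The count of 21 astrocyte genes higher in HT at an unadjusted p under 0.05 was 13 without the mean-variance trend (4.49% of all genes), 12 with sample quality weights (4.42%) and 7 without HT2 and HT5 (2.96%), ran from 11 (without WT3) to 26 with 1 mouse left out (3.38% to 5.74%), and was 20 to 24 under the other settings. On the lower side, with 0 genes, Chrdl1 came under that p with sample weights (-0.22), without HT2 (-0.23) and without HT2 and HT5 (-0.31). No gene of the 39 passed the adjusted threshold under any of them. Their median log2 fold change ran from 0.13 to 0.24 with 1 mouse left out and was 0.07 without HT2 and HT5. The 3 genes without overlap became 3 to 7 with 1 mouse left out, 6 without WT5 and 7 without WT2, where fewer mice make overlap rarer (0.883% to 1.7% of all genes), and were 2 after quantile normalisation, 3 after upper-quartile rescaling and 4 without HT2 and HT5 (1.9%). Of 819 values of single genes, 810 kept their direction. The other 9 were Slc4a4 without HT2 and HT5 (-0.02) and S100b with sample weights (-0.06), without HT2 and HT5 (-0.09), and with 1 mouse left out (-0.05 to 0.00), for which the cause was not tested. Arid1b stayed between -0.61 and -0.56. With the replicate block, 24 of the 39 genes were higher (4.79% of all genes) and the median was 0.21. The smallest limma adjusted p of the 39 was then 0.15, against 0.32 in the main fit. Mice with the same number correlated at -0.041 to 0.101, and 5 of 10 correlated best with their own number. These values do not settle whether the numbers mark pairs, and the main fit did not take them as pairs. The DESeq2 alternative was not run, since whole reads could not be recovered. Depth limits none of the 39 genes by detection, the lowest averaging 332.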
